A study of Saccharomyces cerevisiae BY4741 with 8 samples.

Results

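The 40 genes described here encode the enzymes with which *Saccharomyces cerevisiae* removes peroxides and superoxide and keeps its thiols reduced, together with *YAP1* and *SKN7*, the transcription factors that switch many of them on. The list was drawn up by gene name from the known pathways, with earlier results of these data known: catalases, superoxide dismutases, thiol peroxidases, the thioredoxin and glutaredoxin systems, glutathione synthesis, glutathione transferases, and the flavohaemoglobin *YHB1*. The 40 genes stood among 5782 genes listed in the 8 libraries, and 39 of them were among the 5506 genes with enough counts to be tested. *SRX1* (YKL086W), which encodes the sulfiredoxin that repairs over-oxidized peroxiredoxins, was the member not tested.

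Poly(A) RNA was sequenced from BY4741(*yrr1*Δ) and its parent BY4741, a laboratory strain of mating type **a**. *YRR1* encodes a zinc cluster transcription factor of drug resistance genes, and the study asked how its loss changes the response to vanillin, a phenolic aldehyde that forms when lignocellulose is broken down and that inhibits growth. The 4 groups were BY4741(*yrr1*Δ) in SD with 5 mM vanillin, BY4741 in SD with 5 mM vanillin, BY4741(*yrr1*Δ) in SD and BY4741 in SD, with 2 biological replicates each. SD is a synthetic glucose medium. Cells were collected in log phase, at an OD600 of 1.6 to 2.0 after a start at 0.2. Both strains carry the auxotrophic alleles of BY4741, which the study's methods list as *his3*Δ1, *leu2*Δ, *met5*Δ and *ura3*Δ. How many independent deletion clones were used was not given in the sources used here, and how far the duplicates were separate cultures was not described beyond their name, so the p-values below measure the spread between these libraries.

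As background, yeast meets hydrogen peroxide with catalases and with peroxidases that draw electrons from NADPH through thioredoxin or glutathione. When peroxide oxidizes the peroxidase Hyr1p, Hyr1p passes the oxidation on to Yap1p, which then stays in the nucleus and binds TTACTAA, or the related TGACTAA, in front of its targets. Many of the same genes also carry the stress response element AGGGG, bound by Msn2p and Msn4p, which are active in stressed and slowly growing cells. Vanillin and other aldehydes are known in yeast to raise oxidant levels and to activate Yap1p.

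The libraries held between 2195324 and 2453837 expected counts, and *YRR1* had at most 2 counts in each BY4741(*yrr1*Δ) library, against 73 to 100 in each BY4741 library. The mating type **a** genes *STE2*, *STE6* and *BAR1* were present in every library, between 58.8 and 641 FPKM (fragments per kilobase of transcript, scaled to the depth of the library), whereas *STE3*, which marks mating type alpha, stayed at or below 12.4 FPKM. The alpha pheromone gene *MF(ALPHA)1* had 4 and 3 counts in BY4741(*yrr1*Δ) and 26 and 22 counts in BY4741 with vanillin, and at most 1 count in each SD library. *LEU2* and *URA3* had at most 2 counts, and *MET17*, which the methods do not list as deleted, at most 9. *HIS3* and *MET5*, which the methods do list, had 51 to 181 and 300 to 585 counts over the libraries. A *met5* deletion was thus not seen in these counts. *HIS3* was lower with vanillin in BY4741(*yrr1*Δ) (log2 fold change -1.46, edgeR quasi-likelihood FDR 0.014). The libraries in SD stood apart in one respect that touches the members. Replicate 2 of BY4741(*yrr1*Δ) in SD correlated more closely with replicate 1 of BY4741 in SD (Pearson r of 0.984 across genes on the log2 scale) than with its own partner (0.954), so that results resting on SD libraries are given below with and without them.

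Together the 40 genes took 1.01% and 1.03% of all counts in BY4741(*yrr1*Δ) with vanillin, 1.33% and 1.33% in BY4741 with vanillin, 1.42% and 1.46% in BY4741(*yrr1*Δ) in SD, and 1.38% and 1.18% in BY4741 in SD. The BY4741(*yrr1*Δ) libraries with vanillin were the lowest of the 8, and the other 6 lay between 1.18% and 1.46%. In these bulk libraries fewer cells with a transcript and less of it per cell cannot be told apart. A gene is called here when its Benjamini-Hochberg adjusted p (FDR) was at most 0.05 in edgeR's quasi-likelihood test, fitted to all genes and all 8 libraries. In the response of BY4741(*yrr1*Δ) to vanillin 20 of the 39 members were called, 2 up and 18 down, where 4.58% of all tested genes were called up and 6.63% down. With scaling by library size alone 3 members were called up and 15 down, where 6.97% of all genes were called up and 5.54% down. In the response of BY4741, 3 members were called, 1 up and 2 down, where 2.32% of all genes were called up and 0.817% down. The median log2 fold change of the 39 members was -0.66 in BY4741(*yrr1*Δ) and 0.12 in BY4741, beside 0.015 and -0.024 for all genes tested. The 3 members called in BY4741, *YHB1*, *CTT1* and *GTT1*, were called in the same direction in BY4741(*yrr1*Δ), and 17 were called in BY4741(*yrr1*Δ) but not in BY4741. Being called in 1 strain and not in the other does not show that the strains differ, which is tested further on.

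**Figure D1:**
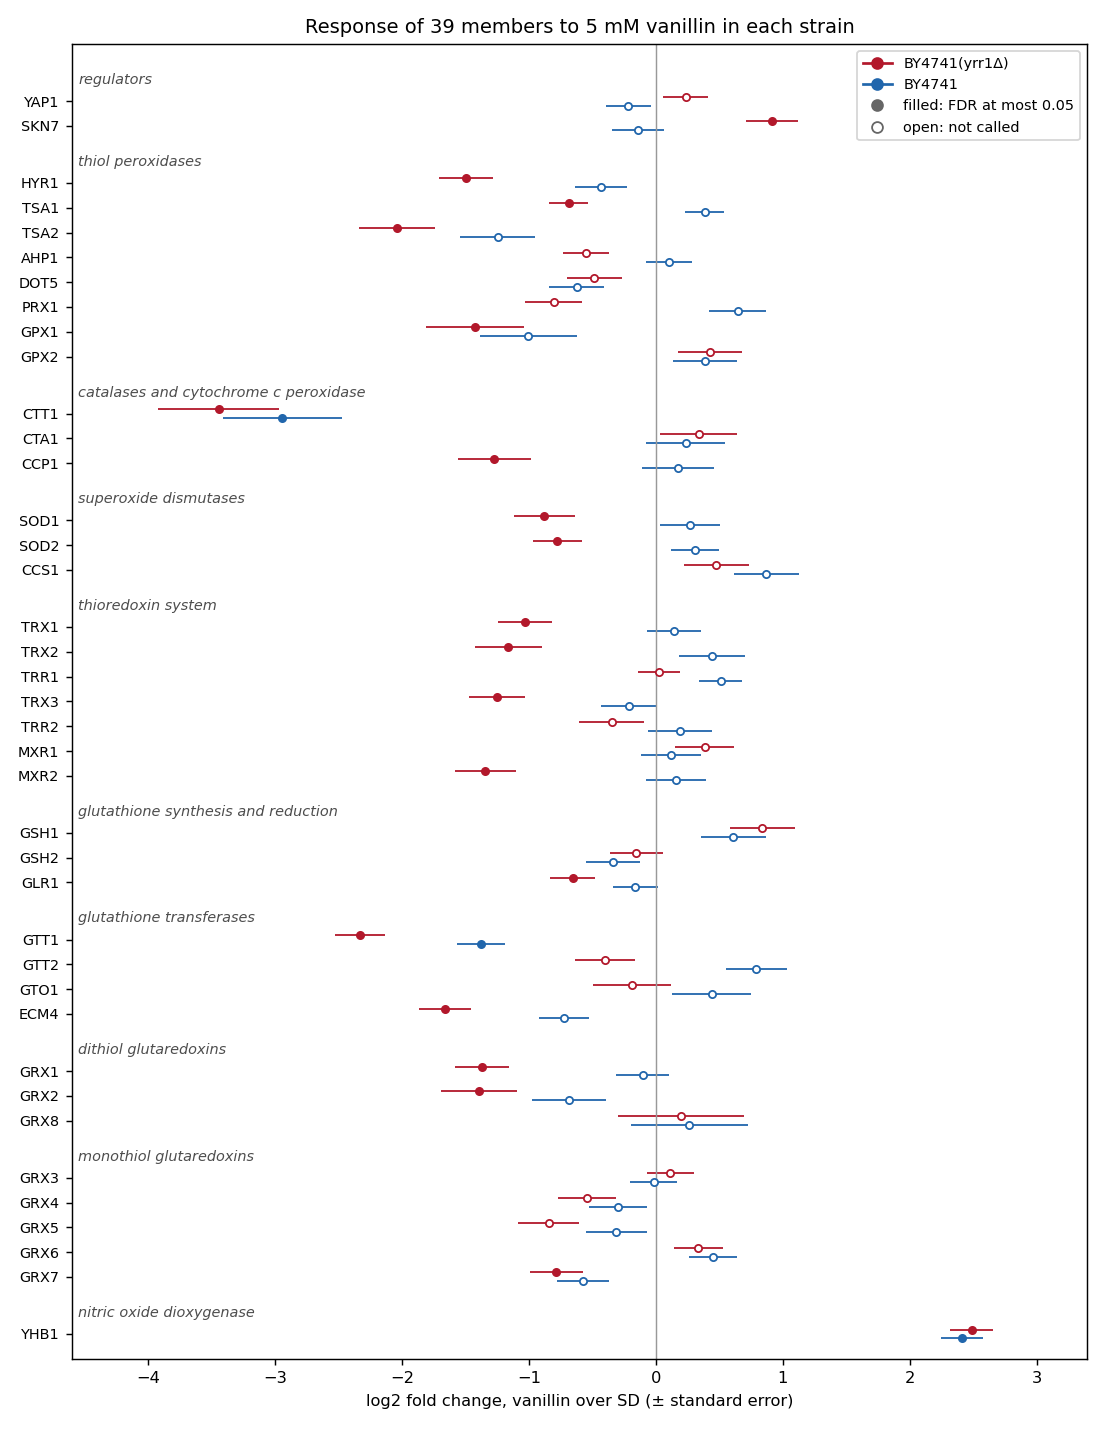
Log2 fold change of each tested member (x axis, vanillin over SD, bars: standard error) by enzyme system (y axis), in BY4741(*yrr1*Δ) (red, upper point) and BY4741 (blue, lower point), from 2 libraries a group. Filled points are called at an FDR of at most 0.05: 20 red points are filled, 18 of them left of 0, whereas 3 blue points are filled, *CTT1* and *GTT1* to the left and *YHB1* to the right.

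*YHB1* (YGR234W, chrVII:959904-961103 in the R64 build), which encodes the flavohaemoglobin that turns nitric oxide into nitrate, was the member with the clearest rise in both strains. It had 652 and 683 FPKM in BY4741(*yrr1*Δ) with vanillin, against 104 and 113 FPKM in SD. In BY4741 the values were 713 and 767 FPKM with vanillin, against 160.65 and 139.99 FPKM in SD. The libraries with vanillin all lay above the SD libraries, with nothing between 160.65 and 652 FPKM. *YHB1* rose by 2.49 ± 0.17 on the log2 scale in BY4741(*yrr1*Δ), or 5.61-fold (SE, n = 2 against 2, edgeR quasi-likelihood FDR 0.000114), and by 2.41 ± 0.17 in BY4741, or 5.32-fold (FDR 0.000204). It stayed called whichever library was left out, with a log2 fold change of 2.46 to 2.51 in BY4741(*yrr1*Δ) and 2.33 to 2.48 in BY4741.

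*CTT1* (YGR088W, chrVII:654634-656322), which encodes the cytosolic catalase T, had the largest fall of all members. It had 69.8 and 52.7 FPKM in BY4741(*yrr1*Δ) with vanillin, against 402 and 851 FPKM in SD. In BY4741 it had 55.8 and 71.1 FPKM with vanillin, against 768 and 294 FPKM in SD. All 4 libraries with vanillin lay below all 4 in SD, but the SD libraries themselves spread from 294 to 851 FPKM, and the high one was replicate 2 in BY4741(*yrr1*Δ) and replicate 1 in BY4741. *CTT1* was 10.9-fold lower with vanillin in BY4741(*yrr1*Δ) (log2 fold change -3.44 ± 0.48, edgeR quasi-likelihood FDR 0.00433) and 7.69-fold lower in BY4741 (-2.94 ± 0.47, FDR 0.0114). The call in BY4741(*yrr1*Δ) held without any 1 library, but in BY4741 it was lost without SD replicate 1 (-2.15, FDR 0.0512) and without either library with vanillin (-2.76 and -3.16, FDR 0.134 and 0.118).

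*GTT1* (YIR038C, chrIX:423809-424513), which encodes a glutathione transferase of the endoplasmic reticulum, fell in both strains, and its SD libraries lay close together. It had 142 and 174 FPKM in BY4741(*yrr1*Δ) with vanillin, against 705 and 718 FPKM in SD. In BY4741 it had 260.2 and 199 FPKM with vanillin, against 659 and 630.2 FPKM in SD. The fall was 5.02-fold in BY4741(*yrr1*Δ) (log2 fold change -2.33 ± 0.20, edgeR quasi-likelihood FDR 0.00049) and 2.60-fold in BY4741 (-1.38 ± 0.19, FDR 0.0056). In BY4741 the call was lost without vanillin replicate 2 (-1.22, FDR 0.0974). Under the limits the study used, a fold change of at least 2 with an FDR of at most 0.001, 2 members remained called in BY4741(*yrr1*Δ), *YHB1* up and *GTT1* down, and in BY4741 only *YHB1*, where 0.272% and 0.182% of all genes were called in either direction.

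The stretches in front of these 3 genes, which moved in both strains, and of *TRX2*, a textbook Yap1p target, are given to show which elements they carry. They were read from the R64 reference genome, 5′ to 3′ on the coding strand, with the Yap1p elements and the stress response element, on either strand, in capitals.
*CTT1*, chrVII:654234-654524, plus strand: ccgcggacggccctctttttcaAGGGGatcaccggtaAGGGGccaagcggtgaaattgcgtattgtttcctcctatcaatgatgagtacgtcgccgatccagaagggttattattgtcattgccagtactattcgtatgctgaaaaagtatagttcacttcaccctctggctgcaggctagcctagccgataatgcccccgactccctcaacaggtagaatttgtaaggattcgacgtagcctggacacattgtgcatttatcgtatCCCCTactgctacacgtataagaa
*GTT1*, chrIX:424613-424773, minus strand: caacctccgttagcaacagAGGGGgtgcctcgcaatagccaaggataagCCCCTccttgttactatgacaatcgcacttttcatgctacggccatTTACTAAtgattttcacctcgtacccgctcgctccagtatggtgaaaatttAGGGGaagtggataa
*YHB1*, chrVII:959474-959534, plus strand: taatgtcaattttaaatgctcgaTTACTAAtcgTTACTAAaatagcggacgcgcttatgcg
*TRX2*, chrVII:913387-913467, minus strand: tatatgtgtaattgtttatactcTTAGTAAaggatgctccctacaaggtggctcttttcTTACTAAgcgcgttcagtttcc
The *CTT1* stretch held 3 copies of AGGGG, at 378, 363 and 133 bases before the start codon, and neither Yap1p sequence. The *GTT1* stretch held 3 copies of AGGGG, at 241, 211 and 114 bases, and 1 of TTACTAA at 165. The *YHB1* stretch held TTACTAA at 407 and 397 bases and no AGGGG, and the *TRX2* stretch held TTACTAA at 217 and 181 bases. *TRX2* also has an AGGGG at 430 bases, outside the stretch printed. The *CTT1*, *GTT1* and *YHB1* stretches reach further upstream than the window counted next, in which *YHB1* has no match and *CTT1* has 1.

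Across the members, AGGGG lay in the 300 bases from 250 before to 50 after the start codon in 18 of 40 genes (45.0%), beside 21.61% of 6002 protein-coding genes. TTACTAA was in the same window of 11 members (27.5%), beside 7.45% of all genes, and TGACTAA in 4 (10.0%), beside 3.62%. AGGGG was in 12 of the 18 members called down in BY4741(*yrr1*Δ) (66.7%) and in 6 of the other 22 (27.3%). Over all genes tested it was in 44.7% of those called down and 19.8% of the rest. TTACTAA was in 6 of the 18 (33.3%) and in 5 of the other 22 (22.7%), beside 7.4% and 7.8% over all genes tested. In the 500 bases before the start codon TTACTAA was in 8 of the 18 (44.4%) and in 10 of the other 22 (45.5%). The shares thus no longer differed in that direction, and over all genes tested they were 12.6% of those called down and 12% of the rest. In these 500 bases AGGGG was in 14 of the 18 (77.8%) and 7 of the other 22 (31.8%). Over all genes tested it was in 62.2% of those called down and 32.1% of the rest, so this contrast was not particular to the members. A match is a run of letters and not a shown binding site, and these shares are descriptions without a test.

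Of the regulators, *SKN7* rose in BY4741(*yrr1*Δ) and *YAP1* was not called. *YAP1* (YML007W) had 98.5 and 131 FPKM in BY4741(*yrr1*Δ) with vanillin, against 82.2 and 96.5 FPKM in SD, and 78.7 and 76.8 FPKM in BY4741 with vanillin, against 94.7 and 100.1 FPKM in SD. It was not called in either strain (log2 fold change 0.23 ± 0.18 in BY4741(*yrr1*Δ), FDR 0.419, and -0.22 ± 0.18 in BY4741, FDR 0.552, edgeR quasi-likelihood). *SKN7* (YHR206W), whose product binds many peroxide genes beside Yap1p, had 81.1 and 76.7 FPKM in BY4741(*yrr1*Δ) with vanillin, against 35.2 and 42.0 FPKM in SD. The BY4741 values were 44.8 and 39.1 FPKM with vanillin, against 42.4 and 57.1 FPKM in SD. It rose 1.88-fold in BY4741(*yrr1*Δ) (log2 fold change 0.91 ± 0.21, FDR 0.0254) and was not called in BY4741 (-0.14 ± 0.21, FDR 0.747), where the sign turned to 0.11 without SD replicate 2. The *SKN7* call was kept in 2 of the 8 fits that left out 1 library, those without a BY4741 library in SD, and its log2 fold change stayed between 0.82 and 1.00.

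**Figure D2:**
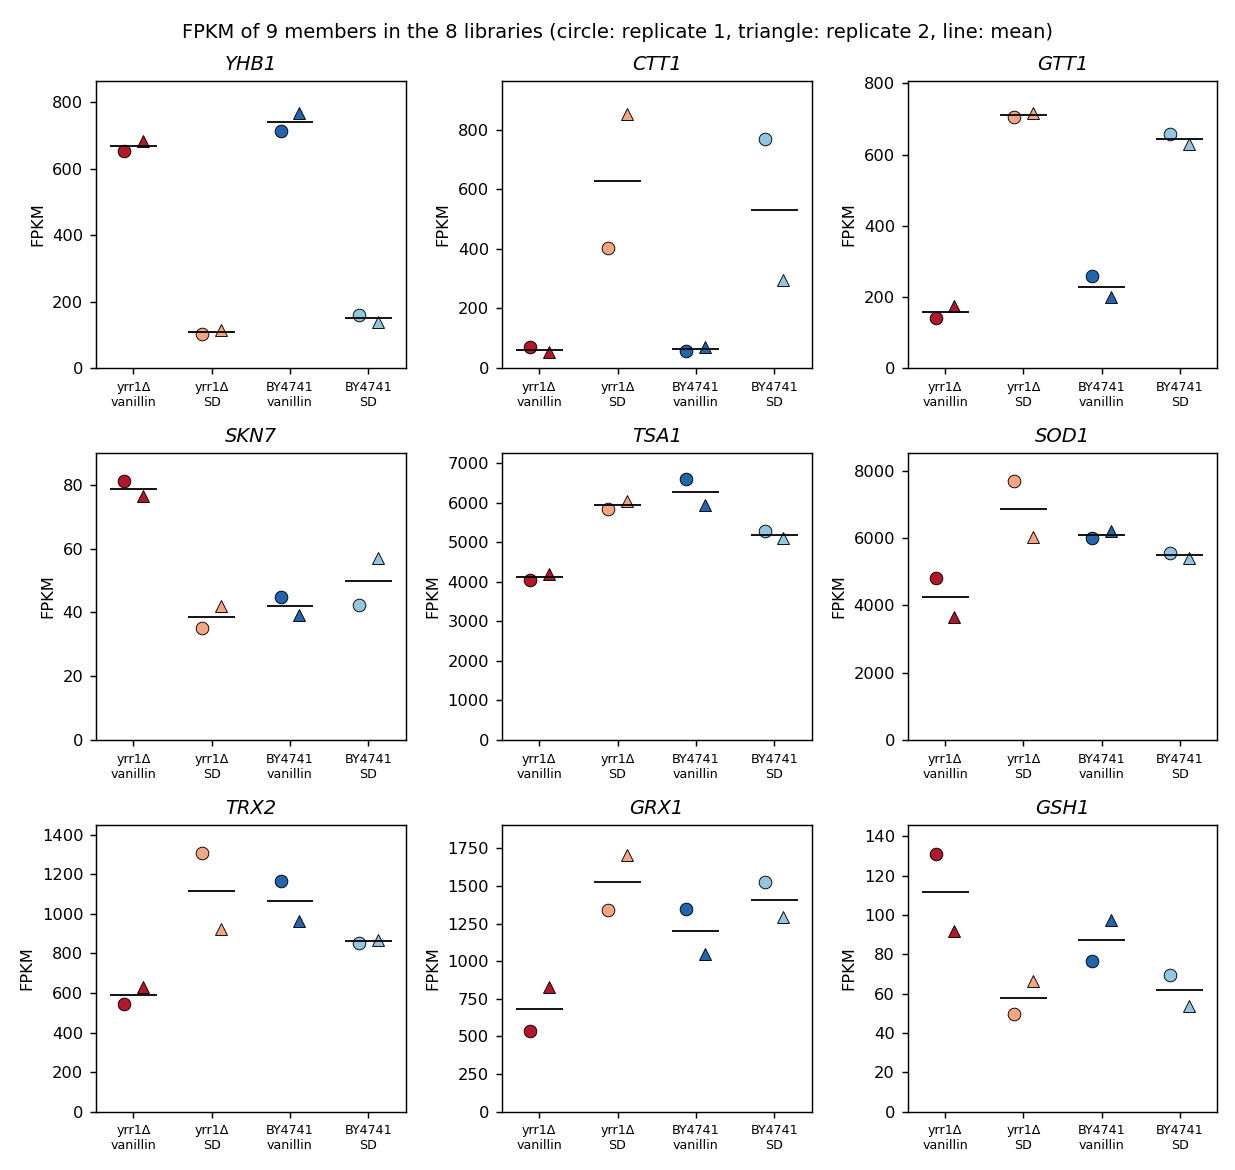
FPKM (y axis, from 0) of 9 members in the 2 libraries of each group (x axis), with the group mean as a line. *YHB1* is high and *CTT1* and *GTT1* are low with vanillin in both strains, while *SKN7* is highest and *TSA1*, *SOD1*, *TRX2* and *GRX1* are lowest in BY4741(*yrr1*Δ) with vanillin.

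Among the thiol peroxidases, which reduce hydrogen peroxide and organic peroxides at a reactive cysteine, 4 of the 8 tested were called in BY4741(*yrr1*Δ), all down, and none in BY4741, where 2 had an unadjusted p under 0.05 upwards and 3 downwards and where the lowest edgeR quasi-likelihood FDR was 0.0612. The summed level of the 9 genes was 8290 and 10024 FPKM in BY4741(*yrr1*Δ) with vanillin, against 12361 and 13619 FPKM in SD. In BY4741 it was 13049 and 12459 FPKM with vanillin, against 12646 and 11191 FPKM in SD. *TSA1* (YML028W), the main cytosolic peroxiredoxin, made up a large part of this, with 4047 and 4197 FPKM in BY4741(*yrr1*Δ) with vanillin, against 5849 and 6039 FPKM in SD. In BY4741 *TSA1* had 6597 and 5949.6 FPKM with vanillin, against 5275 and 5106 FPKM in SD, so that the groups lay apart in opposite directions in the strains. *TSA1* fell by 0.69 ± 0.15 on the log2 scale in BY4741(*yrr1*Δ) (FDR 0.0244) and was not called in BY4741 (0.39 ± 0.15, FDR 0.221). Its call was kept in 3 of the 8 fits without 1 library.

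*TSA2* (YDR453C), the stress-inducible copy of *TSA1*, had 73.4 and 40.5 FPKM in BY4741(*yrr1*Δ) with vanillin, against 189.7 and 238 FPKM in SD. In BY4741 the values were 70.3 and 52.8 FPKM with vanillin, against 166 and 149.8 FPKM in SD. It fell by 2.04 ± 0.30 on the log2 scale in BY4741(*yrr1*Δ) (edgeR quasi-likelihood FDR 0.00543), a call kept without any 1 library, and its BY4741 value was -1.25 ± 0.30 (FDR 0.0612). *HYR1* (YIR037W), the peroxidase that senses peroxide for Yap1p and a convergent neighbour of *GTT1* on chromosome IX, had 282 and 359.5 FPKM in BY4741(*yrr1*Δ) with vanillin, against 790.3 and 806 FPKM in SD, and fell by 1.49 ± 0.21 on the log2 scale (FDR 0.00505), again whichever library was left out. In BY4741 *HYR1* had 624 and 435 FPKM with vanillin, against 804 and 742 FPKM in SD. *GPX1* (YKL026C), a glutathione peroxidase induced in starved cells, fell by 1.42 ± 0.39 to 24.3 and 21.6 FPKM in BY4741(*yrr1*Δ) with vanillin, against 48.4 and 62.7 FPKM in SD (FDR 0.0474), and this call was kept in 2 of the 8 fits without 1 library.

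The other thiol peroxidases were not called. The mitochondrial *PRX1* (YBL064C) stood close to the threshold, with 281 and 282 FPKM in BY4741(*yrr1*Δ) with vanillin, against 371.4 and 528 FPKM in SD, and 599 and 514 FPKM in BY4741 with vanillin, against 469 and 303 FPKM in SD. Its libraries with vanillin lay below those in SD in BY4741(*yrr1*Δ) and above them in BY4741. *AHP1* (YLR109W), another abundant peroxiredoxin, ranged between 3289 and 5702 FPKM over the 8 libraries, the nuclear *DOT5* (YIL010W) between 70.5 and 145.9, and *GPX2* (YBR244W), a further glutathione peroxidase, between 116 and 228. *SRX1* lay between 0 and 10.6 FPKM, at 4.90 and 0 in BY4741(*yrr1*Δ) with vanillin, 7.17 and 10.6 in BY4741 with vanillin, 8.36 and 5.26 in BY4741(*yrr1*Δ) in SD, and 1.82 and 3.48 in BY4741 in SD. *TSA1* and *TSA2* share 78.5% of their coding bases, but no member had a fractional expected count in any library, so reads split between copies were not seen in these values.

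Of the 3 haem peroxidases *CTT1* and *CCP1* were called down in BY4741(*yrr1*Δ), as were *SOD1* and *SOD2* among the dismutases. *CCP1* (YKR066C), the mitochondrial cytochrome c peroxidase, had 195.6 and 179 FPKM in BY4741(*yrr1*Δ) with vanillin, against 477 and 339 FPKM in SD, a fall of 1.27 ± 0.29 on the log2 scale (edgeR quasi-likelihood FDR 0.0255). Its log2 fold change lay between -1.58 and -0.91 in the fits without 1 library, not all of which kept the call. In BY4741 *CCP1* had 242 and 379 FPKM with vanillin, against 283 and 313 FPKM in SD, where the groups overlapped. *CTA1* (YDR256C), the peroxisomal catalase A, stayed low at 14.9 to 26.6 FPKM in all libraries and was not called, unlike *CTT1*. *SOD1* (YJR104C), the copper-zinc superoxide dismutase of the cytosol, had 4824 and 3647 FPKM in BY4741(*yrr1*Δ) with vanillin, against 7701 and 6036 FPKM in SD, and 5999.97 and 6206 FPKM in BY4741 with vanillin, against 5572 and 5398 FPKM in SD. *SOD1* fell by 0.88 ± 0.24 on the log2 scale in BY4741(*yrr1*Δ) (FDR 0.0484) and was not called in BY4741 (0.27 ± 0.24, FDR 0.577). The *SOD1* call was kept in 1 of the 8 fits without 1 library, the one without SD replicate 2 of BY4741(*yrr1*Δ).

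*SOD2* (YHR008C), the manganese enzyme of mitochondria, had 412 and 373 FPKM in BY4741(*yrr1*Δ) with vanillin, against 577 and 641 FPKM in SD, a fall of 0.78 ± 0.19 on the log2 scale (edgeR quasi-likelihood FDR 0.0347) that was kept in 2 of the 8 fits without 1 library. In BY4741 *SOD2* had 566 and 676 FPKM with vanillin, against 609 and 478 FPKM in SD. These FPKM overlapped between the groups, whereas in TMM-scaled counts both libraries with vanillin lay above both in SD. *CCS1* (YMR038C), the copper chaperone that activates Sod1p, went the other way without being called in either strain. It had 471 and 438 FPKM in BY4741(*yrr1*Δ) with vanillin, against 343 and 241 FPKM in SD, and 418 and 537 FPKM in BY4741 with vanillin, against 276 and 289.6 FPKM in SD, so that all 4 libraries with vanillin lay above all 4 in SD. Its log2 fold changes were 0.48 ± 0.25 and 0.87 ± 0.26, with an edgeR quasi-likelihood FDR of 0.249 in BY4741(*yrr1*Δ) and 0.113 in BY4741.

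In the thioredoxin system all 3 thioredoxins fell in BY4741(*yrr1*Δ), while neither reductase was called. *TRX2* (YGR209C), a cytosolic thioredoxin and electron donor to the peroxiredoxins, had 546 and 632 FPKM in BY4741(*yrr1*Δ) with vanillin, against 1305 and 922 FPKM in SD. In BY4741 it had 1164 and 963 FPKM with vanillin, against 854 and 866 FPKM in SD. The libraries with vanillin lay below the SD libraries in BY4741(*yrr1*Δ) and above them in BY4741. *TRX2* fell by 1.16 ± 0.26 on the log2 scale in BY4741(*yrr1*Δ) (edgeR quasi-likelihood FDR 0.0249) and was not called in BY4741 (0.44 ± 0.26, FDR 0.393). Without SD replicate 1 of BY4741(*yrr1*Δ), its highest library, the fall was 0.73 (FDR 0.089), and the call was kept in 3 of the 8 fits without 1 library.

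*TRX1* (YLR043C), the other cytosolic thioredoxin, had 551 and 512 FPKM in BY4741(*yrr1*Δ) with vanillin, against 983 and 880.4 FPKM in SD, and fell by 1.03 ± 0.21 on the log2 scale (edgeR quasi-likelihood FDR 0.0187). *TRX3* (YCR083W), the mitochondrial thioredoxin, had 154 and 166 FPKM in BY4741(*yrr1*Δ) with vanillin, against 346 and 316 FPKM in SD, and fell by 1.25 ± 0.22 (FDR 0.0101). In BY4741 *TRX1* had 765 and 818 FPKM with vanillin, against 781 and 793 FPKM in SD, and *TRX3* had 239 and 178 FPKM with vanillin, against 261 and 263 FPKM in SD, neither of them called. *TRR1* (YDR353W), the cytosolic thioredoxin reductase that feeds both cytosolic thioredoxins from NADPH, had 1299.8 and 1283 FPKM in BY4741(*yrr1*Δ) with vanillin, against 1177 and 1122 FPKM in SD. In BY4741 *TRR1* had 1357 and 1531 FPKM with vanillin, against 1129 and 1061 FPKM in SD. It was not called (log2 fold change 0.026 ± 0.17, FDR 0.933, in BY4741(*yrr1*Δ), and 0.51 ± 0.17, FDR 0.153, in BY4741). In BY4741(*yrr1*Δ) its sign turned to -0.10 without SD replicate 2 and to -0.043 without vanillin replicate 1. *TRR2* (YHR106W), the mitochondrial reductase, lay between 67.4 and 113 FPKM throughout.

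The methionine sulfoxide reductases, which repair oxidized methionine with electrons from thioredoxin, had 1 call of 2. *MXR2* (YCL033C), the mitochondrial enzyme for the R form, had 206 and 229 FPKM in BY4741(*yrr1*Δ) with vanillin, against 564 and 403 FPKM in SD, and fell by 1.34 ± 0.24 on the log2 scale (edgeR quasi-likelihood FDR 0.0104). In BY4741 it had 393 and 387 FPKM with vanillin, against 376 and 379.9 FPKM in SD. *MXR1* (YER042W), the cytosolic enzyme for the S form, ranged between 99.4 and 179 FPKM and was not called in either strain. The *TRX3* and *MXR2* calls were each kept in 6 of the 8 fits without 1 library and the *TRX1* call in 5, and all 3 were lost without either BY4741(*yrr1*Δ) library with vanillin.

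Glutathione is made by Gsh1p and Gsh2p and kept reduced by Glr1p. *GSH1* (YJL101C), the rate-limiting enzyme, had 131 and 92 FPKM in BY4741(*yrr1*Δ) with vanillin, against 49.4 and 66.5 FPKM in SD. The BY4741 values were 76.5 and 97.6 FPKM with vanillin, against 69.5 and 53.9 FPKM in SD, so that all libraries with vanillin lay above all those in SD. It was not called (log2 fold change 0.84 ± 0.26, edgeR quasi-likelihood FDR 0.0698, in BY4741(*yrr1*Δ), and 0.61 ± 0.26, FDR 0.252, in BY4741), although it passed in BY4741(*yrr1*Δ) with DESeq2 (FDR 0.0386) and with scaling by library size alone (FDR 0.0448). *GSH2* (YOL049W), the second enzyme, lay between 102 and 169.99 FPKM and was not called. *GLR1* (YPL091W), the glutathione reductase, had 197 and 253 FPKM in BY4741(*yrr1*Δ) with vanillin, against 294 and 353 FPKM in SD, and 263 and 293 FPKM in BY4741 with vanillin, against 370.7 and 302 FPKM in SD. It fell by 0.66 ± 0.18 on the log2 scale in BY4741(*yrr1*Δ) (FDR 0.0484) and was not called in BY4741 (-0.16 ± 0.18, FDR 0.67), and none of the 8 fits without 1 library kept the call, with log2 fold changes from -0.79 to -0.53.

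Of the glutathione transferases, which attach glutathione to reactive compounds or remove it, *ECM4* (YKR076W) fell with *GTT1*. *ECM4*, an omega class enzyme, had 40.03 and 40.26 FPKM in BY4741(*yrr1*Δ) with vanillin, against 96.8 and 137 FPKM in SD, and fell by 1.66 ± 0.20 on the log2 scale (edgeR quasi-likelihood FDR 0.00296), whichever library was left out. In BY4741 the values were 59.4 and 59.7 FPKM with vanillin, against 119.9 and 93.2 FPKM in SD, with a log2 fold change of -0.73 ± 0.20 that was not called (FDR 0.0924). *GTT2* (YLL060C) ranged between 35.0 and 60.8 FPKM and the peroxisomal *GTO1* (YGR154C) between 22.8 and 44.7 FPKM, and neither was called.

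The dithiol glutaredoxins, small proteins that reduce disulfides with glutathione, fell together in BY4741(*yrr1*Δ) apart from *GRX8* (YLR364W). *GRX1* (YCL035C) had 538 and 831 FPKM in BY4741(*yrr1*Δ) with vanillin, against 1343 and 1708 FPKM in SD, and fell by 1.37 ± 0.21 on the log2 scale (edgeR quasi-likelihood FDR 0.00672), a call kept without any 1 library. In BY4741 *GRX1* had 1348 and 1048 FPKM with vanillin, against 1528 and 1292 FPKM in SD, and the groups overlapped. *GRX2* (YDR513W), its paralogue and the main glutaredoxin activity, had 346 and 460.5 FPKM in BY4741(*yrr1*Δ) with vanillin, against 695 and 1200.3 FPKM in SD, a fall of 1.39 ± 0.30 (FDR 0.0202) kept in 5 of the 8 fits without 1 library. In BY4741 *GRX2* had 527 and 544 FPKM with vanillin, against 1227 and 654 FPKM in SD. As with *CTT1*, the high SD library was replicate 2 of BY4741(*yrr1*Δ) and replicate 1 of BY4741. *GRX2* overlaps another annotated gene on the opposite strand, as does *GRX6* (YDL010W), and the library preparation described does not mark strand, so a share of their reads cannot be assigned. *GRX8* lay between 25.2 and 62.1 FPKM.

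The monothiol glutaredoxins, which serve iron sensing, iron-sulfur cluster assembly and the early secretory pathway, had 1 call among 5. *GRX7* (YBR014C), of the Golgi, had 96.7 and 125 FPKM in BY4741(*yrr1*Δ) with vanillin, against 143 and 201 FPKM in SD, and fell by 0.78 ± 0.21 on the log2 scale (edgeR quasi-likelihood FDR 0.0427), a call that none of the 8 fits without 1 library kept (-0.93 to -0.64). In BY4741 it had 116 and 92.6 FPKM with vanillin, against 182 and 155 FPKM in SD. The other 4 were not called: *GRX5* (YPL059W), of mitochondria, lay between 146 and 276 FPKM, *GRX3* (YDR098C) between 235 and 353, *GRX4* (YER174C) between 103 and 179, and *GRX6* between 118 and 195.

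The fall of the members in BY4741(*yrr1*Δ) ran beside a trend with gene length. Across the 5506 genes the log2 response to vanillin correlated with length at a Spearman rho of 0.36 in BY4741(*yrr1*Δ) and -0.12 in BY4741. This is a description over genes that share the same libraries. In BY4741(*yrr1*Δ) the rho was 0.20 without SD replicate 1 and 0.45 without SD replicate 2, so its size depended on single SD libraries. The members are short, with a median of 699 bases beside 1284 for all tested genes. In BY4741(*yrr1*Δ) the median response of genes of up to 400 bases was -0.39, and that of the 5 members among them, which include *TRX1*, *TRX2*, *TRX3* and *GRX1*, was -1.16. The median of genes of 401 to 600 bases was -0.32, and that of the 11 members among them -0.88. With the length trend of each library removed, an alternative added after the values were seen, 13 members were called in BY4741(*yrr1*Δ), 2 up and 11 down, where 5.56% of all genes were called down. The members' median was then -0.45. *SOD1*, *SOD2*, *TSA1*, *GPX1*, *TRX1*, *GRX2* and *GRX7* lost their call, with log2 fold changes between -1.15 and -0.45 after removal, and the 3 calls in BY4741 were kept. For *GPX1*, *GRX2* and *SOD2* these were -1.15, -1.09 and -0.61, against -1.42, -1.39 and -0.78 before removal. The part of RNA integrity or fragment selection in the length trend was not tested.

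**Figure D3:**
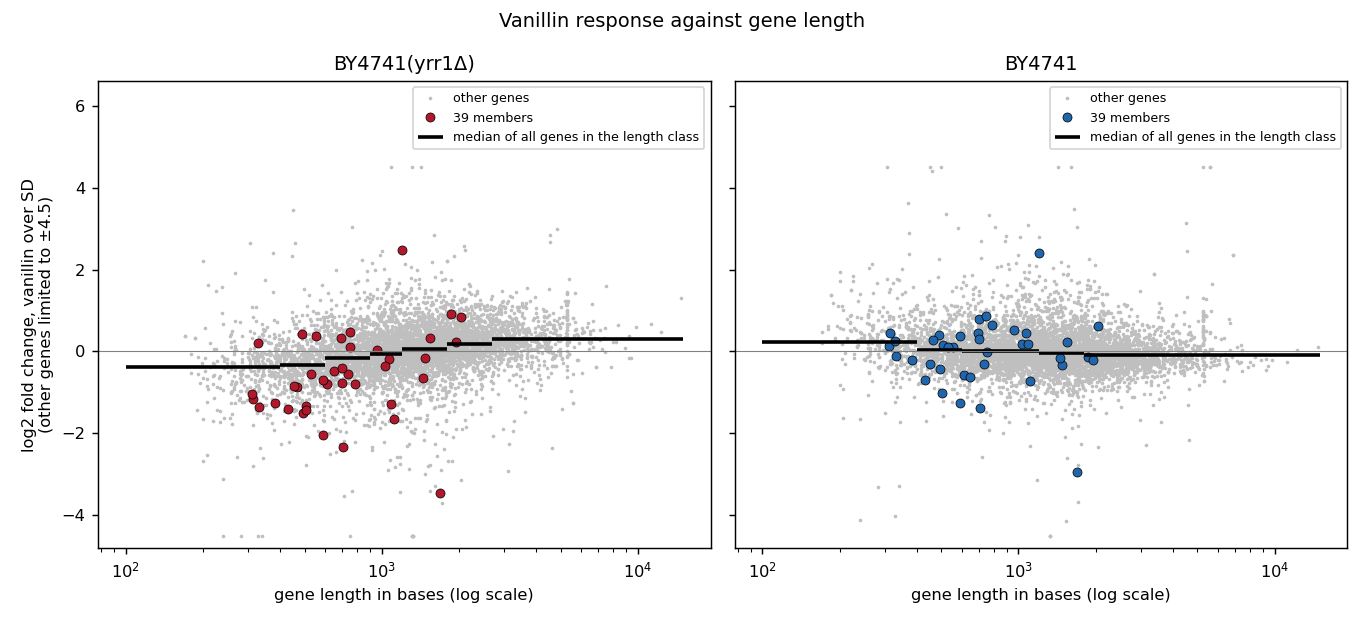
Log2 fold change, vanillin over SD (y axis), against gene length on a log scale (x axis) in BY4741(*yrr1*Δ) (left) and BY4741 (right), with the 39 members as large points and the median of all genes in each length class as black bars. In BY4741(*yrr1*Δ) the bars climb from -0.39 in the shortest class to 0.31 in the longest and most members lie below their bar, whereas in BY4741 the bars run from 0.24 to -0.096.

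Leaving out any 1 library, which leaves 1 library in its group, lowered the number of members called in BY4741(*yrr1*Δ) from 20. The number fell furthest without either of its own libraries with vanillin. In each of these fits the share of all genes called down was lower too, so the members did not move alone. The BY4741 libraries enter this response only through the filter on low counts, the TMM scaling and the shared estimate of the spread. *HYR1*, *CTT1*, *TSA2*, *GTT1*, *ECM4*, *GRX1* and *YHB1* were called in all 8 such fits. In BY4741 the number was between 1 and 4, and it was 1, *YHB1*, without vanillin replicate 2.

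Set against BY4741 with vanillin, BY4741(*yrr1*Δ) with vanillin had lower values in most members, but no member was called. Of the 39 members 31 had a log2 fold change below 0, with a median of -0.42 beside -0.014 for all genes, and in 23 both libraries of BY4741(*yrr1*Δ) lay below both of BY4741, as in 30.1% of all genes. Length enters here too, since the difference correlated with gene length at a Spearman rho of 0.42 across genes. Genes of up to 400 bases had a median of -0.53 and their 5 members -0.78. For 401 to 600 bases the median was -0.31 and that of the 11 members -0.51. Genes of 601 to 900 bases had a median of -0.16 and their 10 members -0.23. For 901 to 1200 bases the values were -0.084 and, for 6 members, -0.42, and for 1201 to 1800 bases 0.026 and, for 4 members, -0.057. For 1801 to 2700 bases they were 0.17 and, for 3 members, 0.39. At an unadjusted p under 0.05, 16 members were lower and 1, *SKN7*, was higher, where 13.2% of all genes were lower. The lowest edgeR quasi-likelihood FDR was 0.0658, of *PRX1* and *TSA1*, and 0.618% of all genes were called in either direction. *PRX1* had 281 and 282 FPKM in BY4741(*yrr1*Δ) with vanillin, against 599 and 514 FPKM in BY4741 with vanillin, a log2 fold change of -1.15 ± 0.23. *TSA1* differed by -0.78 ± 0.15, *TRX2* by -1.07 ± 0.26 and *GRX1* by -1.03 ± 0.21 on the same scale. Without either SD library of BY4741(*yrr1*Δ) edgeR called 3 members, all lower, where 0.903% and 0.938% of all genes were called lower. With DESeq2's Wald test 7 members were called, all lower, where 2.96% of all genes were. *YHB1*, *CTT1* and *TSA2* were close between the strains with vanillin, with log2 differences of -0.32 ± 0.16, -0.21 ± 0.45 and -0.27 ± 0.31.

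In SD without vanillin no member was called between BY4741(*yrr1*Δ) and BY4741 with edgeR's quasi-likelihood test or with DESeq2. There edgeR called 0.0182% of all genes. Of the 39 members 29 had a log2 fold change above 0 and 10 below, with a median of 0.15 beside -0.0057 for all genes. This difference in SD correlated with gene length at a Spearman rho of -0.22 across genes. The rho was 0.062 without SD replicate 1 of BY4741(*yrr1*Δ) and -0.38 without its SD replicate 2. The same SD libraries enter both responses and the interaction. At an unadjusted p under 0.05 there were 2 members, *GTT2* (0.55 ± 0.24 on the log2 scale) and *YHB1* (-0.39 ± 0.16), where 1.78% of all genes passed in either direction. *YHB1* had 104 and 113 FPKM in BY4741(*yrr1*Δ) in SD, against 160.65 and 139.99 FPKM in BY4741 in SD.

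The difference between the 2 responses was tested as the interaction of strain and vanillin. No member was called by edgeR's quasi-likelihood test (lowest FDR 0.101), where 0.0908% of all genes were called. The median interaction of the members was -0.53 on the log2 scale, beside 0.0047 for all genes. The interaction correlated with gene length at a rho of 0.40. Without SD replicate 1 of BY4741(*yrr1*Δ) the rho was 0.28, and without its SD replicate 2 it was 0.47. Genes of up to 400 bases had a median of -0.68 and their members -1.17. Those of 401 to 600 bases had -0.41 and their members -0.71. At an unadjusted p under 0.05, 15 members had a lower and 1, *SKN7*, a higher response in BY4741(*yrr1*Δ), where 11.8% of all genes were lower. *TRX2* (-1.60 ± 0.37), *MXR2* (-1.50 ± 0.34), *PRX1* (-1.45 ± 0.32), *CCP1* (-1.45 ± 0.40) and *GRX1* (-1.26 ± 0.30) had the most negative values. *YHB1* had 0.076 ± 0.22 and *CTT1* -0.50 ± 0.62. Without SD replicate 2 of BY4741(*yrr1*Δ) edgeR called 3 members, where 1.68% of all genes were called. DESeq2 called 9 members, all lower, where 2.83% of all genes were. The interaction and the comparison of the strains with vanillin share the same libraries with vanillin and are not separate evidence.

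The SD libraries, which enter every response above, differed between replicates in a crossed way. Across the 39 members the difference of replicate 1 minus replicate 2 in BY4741(*yrr1*Δ) correlated with that in BY4741 at a Pearson r of -0.50, and at -0.58 across all genes. *CTT1* differed by -0.90 in BY4741(*yrr1*Δ) and by 1.34 in BY4741 in log2 CPM (counts scaled to library size). *GRX2* differed by -0.54 and 0.84 in the same order of strains, and *TRX2* by 0.79 and -0.10. Leaving out SD replicate 2 of BY4741(*yrr1*Δ) and SD replicate 1 of BY4741 together, an alternative added after the values were seen, lowered the number of members called in BY4741(*yrr1*Δ) and not that in BY4741. Leaving out the other SD library of each strain did the same. In both fits, which leave 1 SD library per strain, the share of all genes called down in BY4741(*yrr1*Δ) was lower too. The share called up was lower in the former fit and higher in the latter. Whether culture stage or handling differed between these libraries was not tested.

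**Figure D4:**
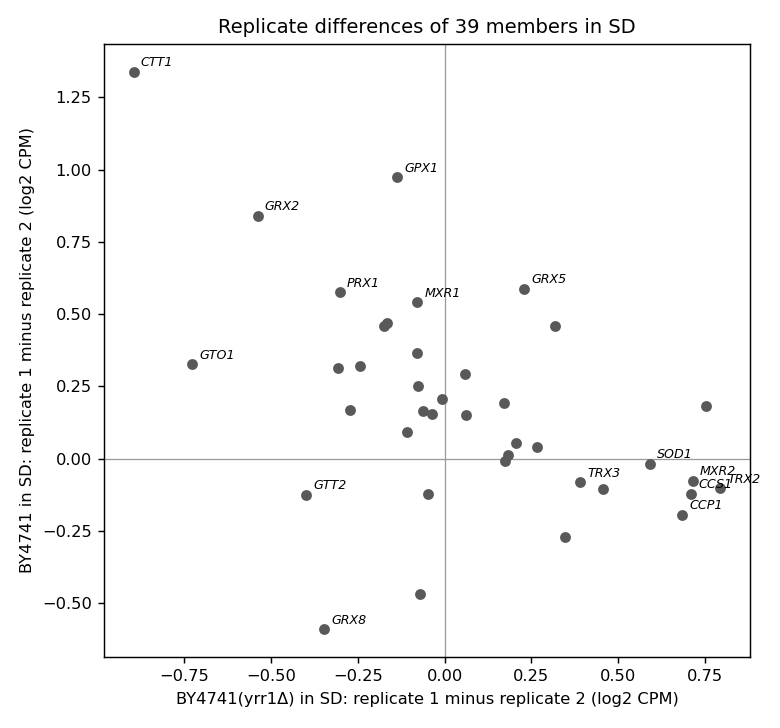
Replicate 1 minus replicate 2 in SD, in log2 CPM, for each of the 39 members in BY4741(*yrr1*Δ) (x axis) and BY4741 (y axis). *CTT1*, at -0.90 and 1.34, and *GRX2*, at -0.54 and 0.84, lie at the upper left, and *TRX2*, at 0.79 and -0.10, at the lower right.

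Around the members stand other genes of the same regulators and cofactors, grouped in lists that were chosen with results of these data known. Of 13 tested Yap1p targets outside the members, mostly reductases and transporters, 4 were called up in BY4741(*yrr1*Δ) and 5 in BY4741, and none down in either strain at an edgeR quasi-likelihood FDR of 0.05. At an unadjusted p under 0.05 none was lower. Their median log2 fold change was 0.63 and 0.89, where the members' was -0.66 and 0.12. Over all genes tested 4.58% were called up and 6.63% down in BY4741(*yrr1*Δ), and 2.32% and 0.817% in BY4741. *YLL056C*, a gene of unknown function, had 48.7 and 49.6 FPKM in BY4741(*yrr1*Δ) with vanillin, against 19.9 and 18.3 FPKM in SD. In BY4741 it had 153.98 and 158 FPKM with vanillin, against 28.9 and 18.9 FPKM in SD. It rose by 1.22 ± 0.25 on the log2 scale in BY4741(*yrr1*Δ) (FDR 0.0175) and by 2.82 ± 0.24 in BY4741 (FDR 0.000528). *OYE3*, an old yellow enzyme singled out after its values were seen, rose by 2.79 ± 0.36 on the log2 scale in BY4741 (FDR 0.00449) and had 0.011 ± 0.37 in BY4741(*yrr1*Δ) (FDR 0.991). With vanillin *OYE3* and *YLL056C* were lower in BY4741(*yrr1*Δ) than in BY4741, with log2 fold changes of -1.93 (FDR 0.0427) and -1.83 (FDR 0.00986), while neither interaction was called (FDR 0.101 for both). Of 13 general stress genes, 7 were called down in BY4741(*yrr1*Δ) and 3 in BY4741 and none up, with medians of -1.23 and -0.57, while at an unadjusted p under 0.05 none was higher in BY4741(*yrr1*Δ) and 2 were in BY4741. *HSP12*, a membrane stress protein, had 301 and 457 FPKM in BY4741(*yrr1*Δ) with vanillin, against 18964 and 14671 FPKM in SD, and 789 and 579 FPKM in BY4741 with vanillin, against 11245 and 13004 FPKM in SD. *PGM2*, a phosphoglucomutase, fell by 2.91 ± 0.49 on the log2 scale in BY4741(*yrr1*Δ) (FDR 0.00849) and had -1.10 ± 0.46 in BY4741 (FDR 0.246). By sign alone, 11 of the 13 general stress genes were lower with vanillin in BY4741(*yrr1*Δ) and 9 in BY4741. *CTT1*, itself known as a general stress gene, was lower in both strains. Of the 13 Yap1p targets outside the members, 12 were higher in BY4741(*yrr1*Δ) and 11 in BY4741, and *YHB1* was higher in both. Fewer genes of either list were called. Of the members, *TRX2*, *GLR1* and *SOD1* also carry TTACTAA before the start codon, and these were called down in BY4741(*yrr1*Δ). Which regulator moved any of these genes was not tested.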

How the data were processed

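Poly(A) RNA of 8 libraries, 2 per group, was analysed from the deposited gene tables. The authors gave expected counts per gene, estimated from reads aligned to the R64 build named in the submitters' processing notes, together with FPKM, which the authors scaled to gene length and depth. The aligner and counter were not given in the sources used here. The tables comparing groups, which hold mean FPKM, log2 ratios and a probability, were not used. Some of their headers name a higher vanillin concentration than the 5 mM of the labels, which is the one given here. Expected counts were rounded, filtered with filterByExpr, scaled by TMM and fitted with 1 term per group in edgeR 4.0.16 (R 4.3.3), with the quasi-likelihood test and Benjamini-Hochberg adjustment over all genes at an FDR of 0.05. The common biological coefficient of variation was 18.9%. FPKM is printed for levels.

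The 40 members and all gene lists were chosen with earlier results of these data known. All members are named, with full statistics for those called and for 10 regulators and enzymes, and the 5 genes from other lists with the largest called response are named, besides mating type and marker genes. Of the Yap1p targets 13 of 15 could be matched, and the others were not analysed here. Alternatives were DESeq2 1.42.0, limma 3.58.1 on log2 of FPKM plus 1 or 0.1, other scalings and filters, a replicate block, only the 4 libraries compared, the study's limits and each library left out in turn. Those on gene length, on SD libraries left out together and on a crossed block were chosen after seeing the data. Sequences came from the R64 reference (Python 3.11.15, Biopython 1.88), where motifs were searched on both strands from 250 bases before to 50 after each start codon and, separately, in the 500 bases before it.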

Additional observations from a re-analysis of the deposited data

How the results depend on the processing

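The number of members called in BY4741(*yrr1*Δ), 20, was 2 under the study's limits, 13 and 12 with limma on log2 of FPKM plus 1 and plus 0.1, 11 with only the 4 libraries compared, 13 with the length trend removed, and 7 to 19 without 1 library. In BY4741, 3 became 1 under the study's limits, 5 with DESeq2, 5 with only the 4 libraries compared, and 1 to 4 without 1 library. Between the strains with vanillin, 0 became 7 with DESeq2, 5 with only the 4 libraries compared, 7 and 7 without 1 SD library of each strain together (1 of them higher without SD replicate 2 of BY4741(*yrr1*Δ) and SD replicate 1 of BY4741, and 3.07% and 3.21% of all genes up and 4.01% and 3.66% down), and 0 to 3 without 1 library. For the interaction, 0 became 9 with DESeq2, 2 without SD replicate 2 of BY4741(*yrr1*Δ) and SD replicate 1 of BY4741 together, and 0 to 3 without 1 library. In SD the count was 0 in every setting run. The share of all genes called moved with the setting too. In BY4741(*yrr1*Δ) 4.34% and 3.92% were called down with limma, 3.38% with only the 4 libraries compared and 5.56% with the length trend removed, against 6.63%. In BY4741 3.8% were called up and 1.47% down with DESeq2, and 3.94% and 0.971% with the 4 libraries. Between the strains with vanillin the 4 libraries gave 2.86% up and 2.95% down. *TRR1* in BY4741(*yrr1*Δ) lay between -0.10 and 0.15 on the log2 scale without 1 library and at -0.085 without that pair of SD libraries. *SKN7* in BY4741 lay between -0.39 and 0.11 without 1 library and at 0.11 without the other pair. The causes were not tested.

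With a replicate block 14 members were called in BY4741(*yrr1*Δ), 3 in BY4741 and 0 in the other comparisons. In that setting 2.69% of all genes were called up and 4.58% down in BY4741(*yrr1*Δ), and 1.38% and 0.418% in BY4741. The differences between replicates 1 and 2 correlated at -0.09 to 0.18 between groups, apart from -0.58 between the SD groups. With 1 such difference a group, these values cannot tell whether same-numbered libraries were handled together. The crossed block in the 4 SD libraries called 0 members, and 53 genes up and 22 down. In the response of BY4741(*yrr1*Δ), 252 of all genes were called up and 365 down with TMM, 384 up and 305 down with library size alone, and 306 up and 239 down with limma on log2 of FPKM plus 1. These put the median of all genes at 0.13 and 0.15 on the log2 scale in BY4741(*yrr1*Δ) and at -0.13 and -0.12 in BY4741, where library size alone called 115 up and 67 down. DESeq2 called 94 genes up and 163 down between the strains with vanillin, against 2 and 32 with edgeR, 60 and 156 against 0 and 5 for the interaction, and 209 and 81 against 128 and 45 in BY4741. With 2 libraries a group, differences smaller than this spread were not detectable.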

Other observations

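Few of the genes that supply NADPH to these systems were called, and in both directions. Of 14 tested, BY4741(*yrr1*Δ) had 1 call up and 2 down and BY4741 had 2 up and 1 down at an edgeR quasi-likelihood FDR of 0.05. Over all genes tested 4.58% were called up and 6.63% down in BY4741(*yrr1*Δ), and 2.32% and 0.817% in BY4741. *SOL4*, a 6-phosphogluconolactonase, fell by 3.39 ± 0.48 on the log2 scale in BY4741(*yrr1*Δ) (FDR 0.00455) and had -1.92 ± 0.44 in BY4741 (FDR 0.0561). *GND2*, a 6-phosphogluconate dehydrogenase, fell by 2.98 ± 0.26 in BY4741(*yrr1*Δ) (FDR 0.000514) and by 1.65 ± 0.25 in BY4741 (FDR 0.00842). Of 12 tested genes that degrade, transport or use glutathione, 1 was called up and 4 down in BY4741(*yrr1*Δ), and none in BY4741, where 1 was higher and 1 lower at an unadjusted p under 0.05.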
